A study of Mus musculus with 4 samples.

Results

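The miR-290 and miR-302 clusters are groups of neighbouring miRNA genes, most of them transcribed together in pluripotent cells. Of their mature miRNAs, 10 were followed in the telencephalic primordium of the mouse embryo at E11.5. These were the 5p arms mmu-miR-291a-5p, mmu-miR-292a-5p, mmu-miR-293-5p, mmu-miR-294-5p and mmu-miR-295-5p of the miR-290 cluster and mmu-miR-302a-5p, mmu-miR-302b-5p, mmu-miR-302c-5p, mmu-miR-302d-5p and mmu-miR-367-5p of the miR-302 cluster. They were chosen by name and are 10 of the 1059 mature miRNAs in the count tables. A further 5 rows of the tables belong to the same 2 clusters and are given beside them.

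The rostral-most telencephalic primordium was dissected for small RNA sequencing in 4 libraries, 2 from Rx-Dicer mutants (RxCre-DicerF/F) and 2 from control littermates. The controls are labelled WT, and by the design of the series they carried the same floxed Dicer alleles (DicerF/F) without Cre. Rx3-Cre animals were kept in a CD1 background and floxed Dicer animals in C57BL/6. In the mutants, Cre under Rx regulatory sequence deletes Dicer from the anterior neural fold onwards. Dissected tissue can therefore also hold cells that never expressed Cre. The paper's in situ hybridization for Dicer and miR-9 was done on embryos older than those sequenced here. From it the paper describes a substantial reduction of both in rostral telencephalon. It calls the loss almost complete at early stages in rostral and ventral telencephalon. In the dorsal telencephalon it describes Dicer deletion as incomplete, from the oldest embryos stained. The labels do not give the number of embryos behind a library, so tests measure the spread between these samples only. Dicer mRNA was not measured in these small RNA libraries, so the deletion itself could not be checked here.

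As background, Dicer cuts miRNA hairpins into mature miRNAs, which guide silencing complexes to mRNAs mainly through their seed, bases 2 to 8. Both clusters are hallmarks of embryonic stem cells and the early embryo, where the 3p arms of most of these hairpins share a seed that favours proliferation and the pluripotent state, and both are switched off as cells differentiate. The miR-290 cluster is active from the earliest embryo, and the miR-302 cluster follows around the epiblast stage and continues in early neuroepithelium. The 3p arms of the 10 miRNAs were not analysed here. Of the rows counted, 925 are named as 5p arms and 114 as 3p arms, and mmu-miR-290b-3p is the only 3p row of the 2 clusters. Cluster sums below are therefore sums of these rows and not levels of whole clusters.

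The sequences are shown because they decide which reads can be assigned to which miRNA and because the 2 miRNAs that carried nearly all counts, mmu-miR-292a-5p and mmu-miR-302a-5p, differ in their seeds. All 10 names matched a RefSeq mature miRNA (GRCm38.p6). Each sequence reads 5′ to 3′, and capitals mark the seed.
mmu-miR-291a-5p: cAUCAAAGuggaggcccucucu
mmu-miR-292a-5p: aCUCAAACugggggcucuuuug
mmu-miR-293-5p: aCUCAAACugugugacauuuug
mmu-miR-294-5p: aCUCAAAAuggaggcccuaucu
mmu-miR-295-5p: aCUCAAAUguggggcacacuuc
mmu-miR-302a-5p: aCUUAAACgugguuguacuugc
mmu-miR-302b-5p: aCUUUAACaugggaaugcuuucu
mmu-miR-302c-5p: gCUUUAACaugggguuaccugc
mmu-miR-302d-5p: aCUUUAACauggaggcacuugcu
mmu-miR-367-5p: aCUGUUGCuaacaugcaacuc

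The seed CUCAAAC was shared by mmu-miR-292a-5p, mmu-miR-293-5p and mmu-miR-290a-5p, a row of the miR-290 cluster outside the 10. The seed CUUUAAC was shared by mmu-miR-302b-5p, mmu-miR-302c-5p and mmu-miR-302d-5p, and mmu-miR-302a-5p stood alone among these with CUUAAAC. The seed of mmu-miR-291a-5p, AUCAAAG, recurred in mmu-miR-291b-5p, and that of mmu-miR-294-5p, CUCAAAA, in mmu-miR-292b-5p. No RefSeq mouse miRNA outside the 2 clusters had the seed of any of the 10.

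The miR-302 cluster lies on the plus strand of chromosome 3 (GRCm38, chr3:127545228-127545807). Its 5 genes fall within 580 bases, in an intron of Larp7, a La-related RNA-binding protein gene on the opposite strand (chr3:127536714-127553349). The mature mmu-miR-302a-5p is at chr3:127545501-127545522. The 9 annotated genes of the miR-290 cluster lie within 2216 bases of chromosome 7 (chr7:3218626-3220841), and the mature mmu-miR-292a-5p is at chr7:3219200-3219221. Of these genes, Mir290b and Mir292b lie on the minus strand and the rest on the plus strand. The 5 followed here lie opposite an untranslated region of Nlrp12, a gene of the NOD-like receptor family (chr7:3218784-3249740).

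The closest relative of mmu-miR-302a-5p among RefSeq mature miRNAs was mmu-miR-302d-5p, 6 edits away. That of mmu-miR-292a-5p was 5 edits away, and 3 miRNAs shared that distance, mmu-miR-290a-5p among them. In 141767 GENCODE transcripts, the first 18 bases of mmu-miR-302a-5p were found in the sense direction in Mir302a alone, also with 1 mismatch allowed, and those of mmu-miR-292a-5p exactly in Mir292 alone and with 1 mismatch in Pkd1, the polycystin gene. The pair mmu-miR-291a-5p and mmu-miR-291b-5p differed by only 2 edits, so the division of reads between them is uncertain.

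Summed over 1 row per mature miRNA, the Rx-Dicer libraries held 651031 (replicate 1) and 516517 counts (replicate 2), and the control libraries held 1299067 (replicate 1) and 1133553 counts (replicate 2), so both mutant libraries held fewer miRNA counts than both controls. Totals of all reads sequenced were not used here, so shallower sequencing and a lower miRNA content cannot be told apart. The neural miRNA mmu-miR-9-5p, which promotes neurogenesis, took 28.2% and 29.4% of the counts in the Rx-Dicer libraries. In the control libraries it took 31.5% and 42.6%, so a defining marker of neural tissue was abundant throughout. The near-complete loss that the paper describes from older embryos was not seen in these shares, which do not give amounts. A count of 0 allows up to 3 counts, which corresponds to 4.61 and 5.81 CPM (counts-per-million) for the mutants and to 2.31 and 2.65 CPM for the controls. Levels below are CPM scaled by edgeR's TMM factors unless CPM of the library total is named. Both scales give a miRNA relative to the other miRNAs of its library. A higher level, a higher cluster sum or a positive fold change in the mutants is therefore not a measure of more miRNA per cell. Reads carried no molecular identifiers. Every interval given here is 95%. Those of counts, levels, shares and pooled ratios cover counting error only, while those of log2 fold changes also include the spread between libraries.

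Counts above 0 were found for 8 of the 10 miRNAs in at least 1 library, but for only 2 of them, mmu-miR-292a-5p and mmu-miR-302a-5p, in all 4 libraries. Over the whole table, 59.9% of mature miRNAs had a count in at least 1 library and 36.0% had one in all 4. The number of the 10 detected was 6 and 3 in Rx-Dicer libraries 1 and 2 and 5 and 4 in control libraries 1 and 2. The groups overlapped and every library held some. Of all mature miRNAs, 45.4% and 43.5% were detected in these Rx-Dicer libraries and 50.4% and 45.8% in these controls. When at least 3 counts were required, 3 of the 10 were detected in some library, and at 10 counts only the 2 named above were. Over the whole table, the shares in some library were 40.9% at 3 counts and 28.1% at 10.

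**Figure D1:**
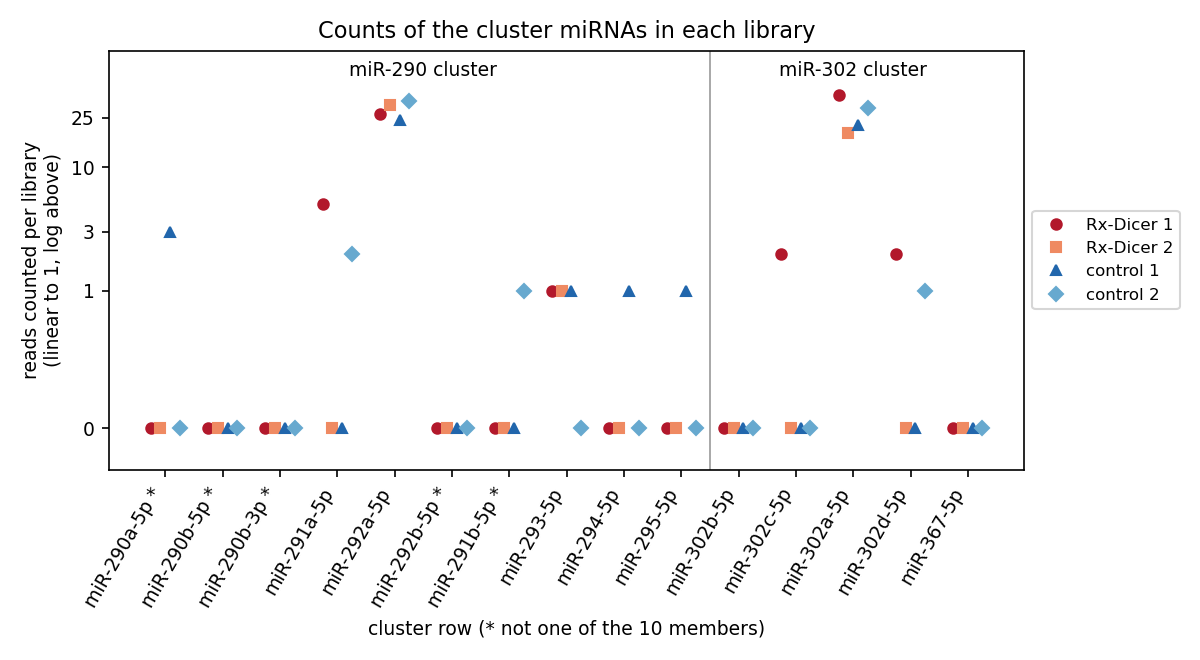
Counts of each row of the miR-290 and miR-302 clusters (x axis) in each of the 4 libraries (y axis, linear to 1 and logarithmic above; red and orange are Rx-Dicer libraries, blue are controls, and asterisks mark the 5 rows outside the 10). Only miR-292a-5p, with 24 to 34 counts, and miR-302a-5p, with 19 to 38, stood above 5 counts in any library.

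In the miR-290 cluster, mmu-miR-292a-5p had 27 counts in Rx-Dicer library 1, 32 in Rx-Dicer library 2, 24 in control library 1 and 34 in control library 2. It was detected in every library and ranked 217 of 1059 by its total of 117 counts. Of the other rows, mmu-miR-291a-5p had 5 counts in Rx-Dicer library 1, 2 in control library 2 and 0 in the others. The groups overlapped for mmu-miR-291a-5p, since each genotype had a library at 0, and its pooled mutant level was 3.94 times the control level with an interval of 0.646 to 41.4.

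The other 3 miRNAs of this cluster were at the edge of detection. There was 1 count of mmu-miR-293-5p in each library except control library 2, which had 0, and a single count each of mmu-miR-294-5p and mmu-miR-295-5p, both in control library 1. None of these reached 3 counts in any library, so a difference between genotypes was not detectable at this depth. Among the additional rows, mmu-miR-290a-5p had 3 counts in control library 1, mmu-miR-291b-5p had 1 in control library 2, and mmu-miR-290b-5p, mmu-miR-290b-3p and mmu-miR-292b-5p were at 0 throughout.

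In the miR-302 cluster, mmu-miR-302a-5p had 38 counts in Rx-Dicer library 1, 19 in Rx-Dicer library 2, 22 in control library 1 and 30 in control library 2. The highest and the lowest of these were both mutant libraries, and its total of 109 counts ranked 220 of 1059. The other 4 were near or at 0. There were 2 counts of mmu-miR-302c-5p, both in Rx-Dicer library 1, and mmu-miR-302d-5p had 2 counts in Rx-Dicer library 1 and 1 in control library 2. Both mmu-miR-302b-5p and mmu-miR-367-5p were at 0 in all 4 libraries. For each of the pair at 0, the limit over the 4 libraries was taken as 3 counts, and mmu-miR-302a-5p was 36.3-fold above it. Per library, with 3 counts in that library as the limit, this ran from 6.33-fold in Rx-Dicer library 2 to 12.7-fold in Rx-Dicer library 1. These ratios leave out the counting error of mmu-miR-302a-5p itself, so they are not strict lower bounds.

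Among the rows given here, all 5p arms except mmu-miR-290b-3p, a single 5p arm carried most counts of each cluster. Of the 133 counts on the 10 rows of the miR-290 cluster, mmu-miR-292a-5p took 117, or 88.0% (exact interval 81.2% to 93.0%), and its share in single libraries ran from 80.0% to 97.0%. Of the 114 counts on the 5 rows of the miR-302 cluster, mmu-miR-302a-5p took 109, or 95.6% (exact interval 90.1% to 98.6%), and between 90.5% and 100% in single libraries. The ratio of mmu-miR-292a-5p to mmu-miR-302a-5p, which does not depend on scaling, was 0.711 (0.417 to 1.19) for Rx-Dicer library 1 and 1.68 (0.926 to 3.14) for Rx-Dicer library 2. In control libraries 1 and 2 it was 1.09 (0.586 to 2.04) and 1.13 (0.673 to 1.92). The mutant libraries lay on either side of both controls, and every interval included equal counts.

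**Figure D2:**
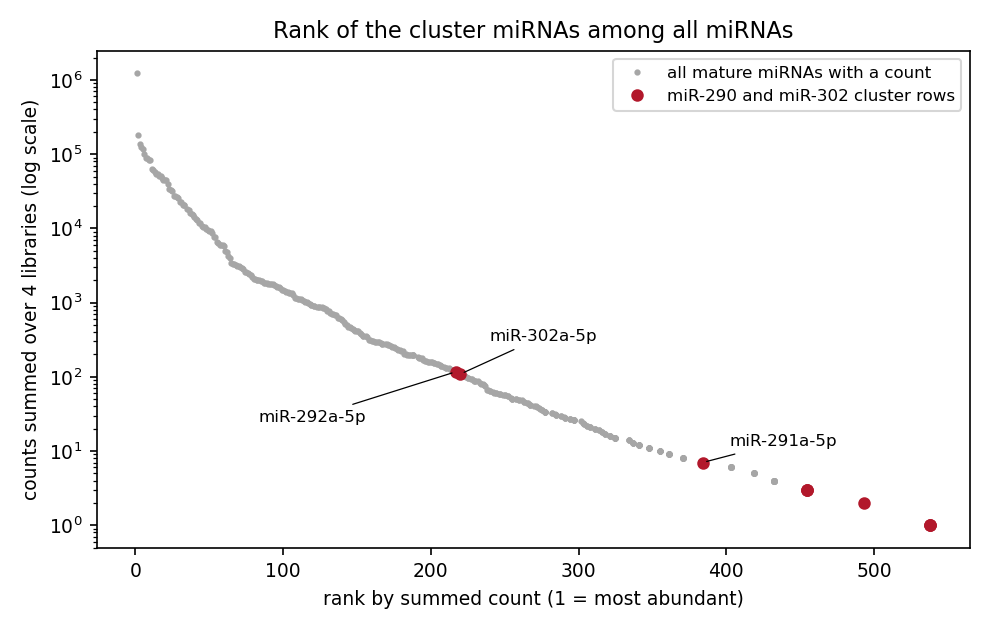
Counts summed over the 4 libraries (y axis, logarithmic) against rank (x axis) for every mature miRNA with a count, with rows of the miR-290 and miR-302 clusters in red. miR-292a-5p and miR-302a-5p lay at ranks 217 and 220 with 117 and 109 counts, miR-291a-5p at rank 384 with 7 counts, and the remaining detected rows at 3 counts or fewer.

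For scale, 425 of the 1059 mature miRNAs had no count at all, the median total was 2 counts, and mmu-miR-9-5p reached 1227607. The 2 leading cluster miRNAs lay above the median row of the table and far below mmu-miR-9-5p. Among miRNAs of other loci, mmu-miR-345-5p was nearest in level to the sum of the followed miR-290 cluster miRNAs, without the additional rows. It was at 40.7 and 51.2 scaled CPM in the mutants and 42.4 and 39.0 in the controls. The level nearest to the summed miR-302 cluster was that of mmu-miR-143-5p, a miRNA of smooth muscle and mesenchyme, at 52.6 and 22.2 scaled CPM in the mutants and 17.5 and 32.5 in the controls. These neighbours were chosen by the mean absolute log2 difference over 4 libraries (0.282 and 0.18), and the likeness is one of level.

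Whether the remaining cluster miRNAs differed between genotypes could be tested only for mmu-miR-292a-5p and mmu-miR-302a-5p, since the other 8 were under the minimum of 10 counts in at least 2 libraries. Neither was called lower or higher by edgeR's quasi-likelihood test at a Benjamini-Hochberg adjusted p of 0.05. Of the 274 miRNAs tested, 2.55% were called lower in the mutants (7) and 0.0% were called higher. Without control library 1 or control library 2, the count called lower was 0, and it was 1 without Rx-Dicer library 1. At an unadjusted p under 0.05, edgeR found 23 lower and 3 higher, neither of the 2 among them, and DESeq2's Wald test called 11 lower and 0 higher. With no count minimum, 8 of the 10 could be fitted among 634 miRNAs, of which edgeR called 2.21% lower (14) and 0.0% higher. It called 0 of these 8, with 0 at an unadjusted p under 0.05 (lowest 0.223, adjusted p 0.905), and 6 of them had at most 7 counts in all.

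The scaled level of mmu-miR-292a-5p was 35.5 CPM (23.4 to 51.6) in Rx-Dicer library 1 and 54.6 CPM (37.3 to 77.0) in Rx-Dicer library 2. It was 19.9 CPM (12.8 to 29.7) in control library 1 and 36.9 CPM (25.5 to 51.5) in control library 2. The groups overlapped, because control library 2 lay above Rx-Dicer library 1. The means were 45.0 ± 13.5 CPM in the mutants and 28.4 ± 12.0 CPM in the controls (SD, n = 2 each). The log2 fold change of mutant over control was 0.67 ± 0.46 (SE), with an interval of -0.40 to 1.74 and an adjusted p of 0.637 (edgeR's quasi-likelihood test, Benjamini-Hochberg).

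The scaled level of mmu-miR-302a-5p was 49.9 CPM (35.3 to 68.6) in Rx-Dicer library 1 and 32.4 CPM (19.5 to 50.6) in Rx-Dicer library 2. It was 18.3 CPM (11.46 to 27.7) in control library 1 and 32.5 CPM (21.9 to 46.4) in control library 2. Rx-Dicer library 2 and control library 2 were nearly equal, so these groups overlapped too. The means were 41.2 ± 12.4 CPM in the mutants and 25.4 ± 10.1 CPM in the controls (SD, n = 2 each). The log2 fold change was 0.72 ± 0.45 (SE), with an interval of -0.34 to 1.78 and an adjusted p of 0.603 in the same edgeR test. For scale, mmu-let-7b-5p, a let-7 family member that was called lower in this comparison, had 66 and 59 counts in the mutants and 1081 and 434 in the controls. Its log2 fold change was -2.87 ± 0.37 (SE), with an adjusted p of 0.0188 by edgeR's quasi-likelihood test, far below the lower end of the interval of either cluster miRNA.

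**Figure D3:**
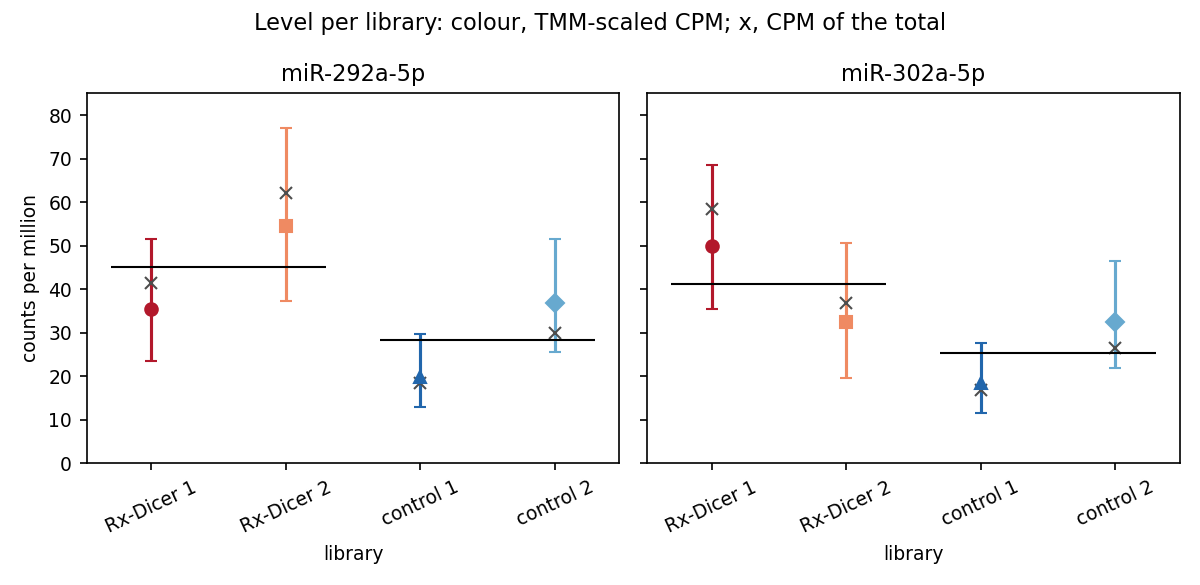
Level of miR-292a-5p (left) and miR-302a-5p (right) in each library (x axis) in counts-per-million (y axis); coloured points are TMM-scaled with 95% Poisson intervals, crosses are CPM of the library total, and horizontal lines are scaled group means. Scaled levels overlapped between genotypes, with means of 45.0 against 28.4 for miR-292a-5p and 41.2 against 25.4 for miR-302a-5p.

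The scale decided whether the groups overlapped. As CPM of the library total, mmu-miR-292a-5p was at 41.5 and 62.0 in the mutants and 18.5 and 30.0 in the controls, and mmu-miR-302a-5p at 58.4 and 36.8 against 16.9 and 26.5, so that both mutant libraries lay above both controls for each. On that scale 48.5% of the 274 tested miRNAs (133) did the same, and on the scaled CPM 17.9% did (49), the 2 cluster miRNAs not among them. Scaled by total counts only, the log2 fold changes were 1.09 and 1.14 for mmu-miR-292a-5p and mmu-miR-302a-5p. The median of all tested miRNAs was then 0.44, against 0.04 with TMM, and relative to it the changes were 0.64 and 0.70. The unadjusted p was 0.0404 and 0.0356 with an adjusted p of 0.219 for both (edgeR's quasi-likelihood test), and the tested miRNAs under an unadjusted 0.05 were then 10 lower and 51 higher, in place of 23 and 3.

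Before any scaling, the mutant libraries held 59 counts of mmu-miR-292a-5p against 58 in the controls, and 57 counts of mmu-miR-302a-5p against 52. The mutant libraries together had 0.48 times the total counts of the controls, and the median tested miRNA had 0.655 times as many counts. At least as many counts in the mutants as in the controls were found for 17 of the 274 tested miRNAs (6.2%), both cluster miRNAs among them. This comparison was chosen after the values were seen.

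**Figure D4:**
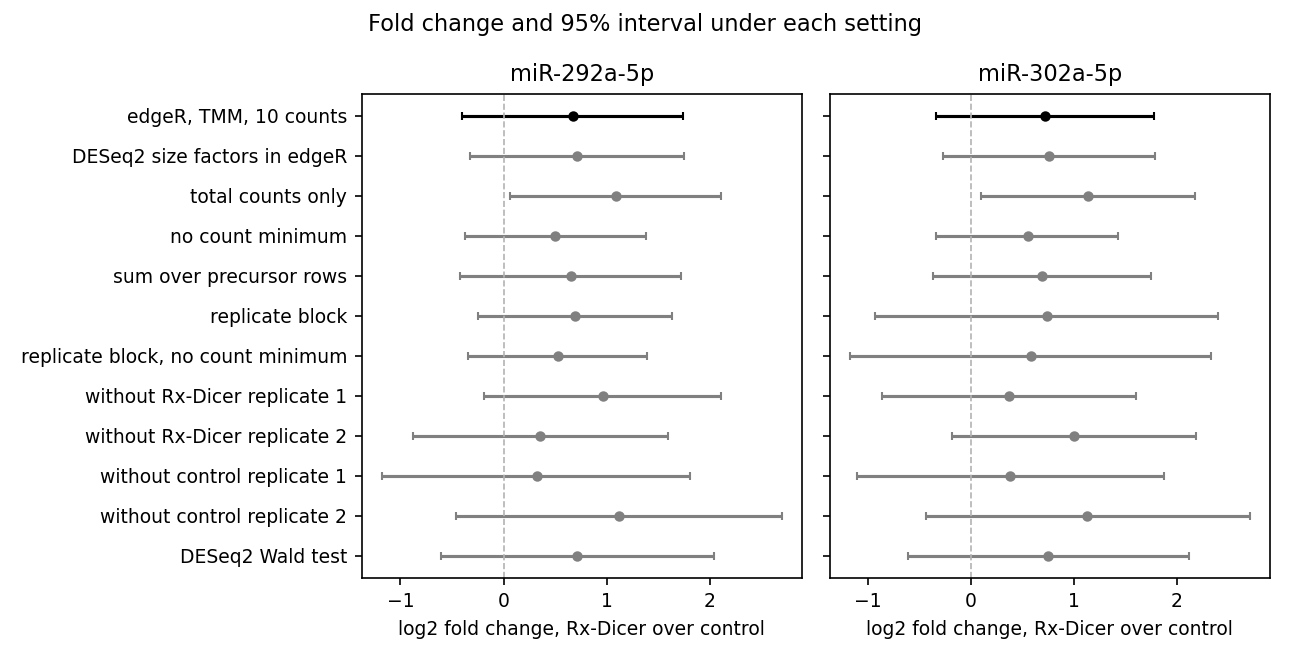
Log2 fold change of mutant over control (x axis) with its 95% interval for miR-292a-5p (left) and miR-302a-5p (right), for the reported test (black) and each alternative (grey). All estimates were above 0, from 0.32 to 1.14, and the intervals included 0 except with total counts only.

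Summed over its 10 rows, the miR-290 cluster had 33 counts in each Rx-Dicer library and 30 and 37 counts in the controls, or 43.4 and 56.3 against 24.9 and 40.1 scaled CPM. Both mutant libraries lay above both controls on this scale, as they did for 17.9% of the single miRNAs tested. The nearest were 43.4 (29.9 to 60.9) in Rx-Dicer library 1 and 40.1 (28.2 to 55.3) in control library 2, with intervals that overlapped. The leading row, mmu-miR-292a-5p, overlapped between genotypes on its own. Means were 49.8 ± 9.12 and 32.5 ± 10.7 CPM (SD, n = 2 each), and the pooled ratio was 1.55 with a counting interval of 1.09 to 2.22. As a share of all counts, the 10 rows made up 0.00507% and 0.00639% for the mutants and 0.00231% and 0.00326% for the controls. On that scale 48.5% of the tested miRNAs were higher in both mutant libraries than in both controls.

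The 5 rows of the miR-302 cluster had 42 and 19 counts in the mutants and 22 and 31 in the controls, or 55.2 and 32.4 against 18.3 and 33.6 scaled CPM. These groups overlapped, with Rx-Dicer library 2 just under control library 2. Means were 43.8 ± 16.1 and 25.9 ± 10.8 CPM (SD, n = 2 each), and the pooled ratio was 1.82 with a counting interval of 1.24 to 2.68. These ratios of pooled counts leave out the spread between libraries, which the edgeR intervals above include.

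Marker miRNAs of other cell types in the dissected tissue were summed in each library beside these levels. Such markers are themselves made by Dicer, and in bulk tissue fewer cells of a type and less RNA per cell cannot be told apart. The 5 neural markers were mmu-miR-9-5p, mmu-miR-124-5p, mmu-miR-92b-5p, mmu-miR-135a-5p and mmu-miR-219a-5p, and all 5 were detected. Their sum was 245000 and 263000 scaled CPM in the mutants against 345000 and 528000 in the controls. In each library 98.3% to 99.3% of this sum was mmu-miR-9-5p, and the other 4 summed to 4110 and 3460 against 5370 and 3690, with overlap.

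The mesenchymal markers, 4 of 4 detected, summed to 11200 and 10600 in the mutants and 4210 and 10500 in the controls. This sum was 93.4% to 94.8% mmu-miR-199a-5p, and the other 3 overlapped between genotypes. The 3 red cell markers, all detected and led by the erythroid mmu-miR-486a-5p, summed to 7590 and 8500 against 5740 and 6360.

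The single endothelial marker, mmu-miR-126a-5p, was detected at 431 and 244 scaled CPM against 253 and 403, with overlap. Of the epithelial markers, 3 of 4 were detected, mmu-miR-203-5p was at 0 in all libraries, and the sum was 235 and 808 against 200.0 and 427, with overlap. Of the muscle markers, 1 of 3 was detected, at 1.31 scaled CPM in Rx-Dicer library 1 alone, while mmu-miR-1a-1-5p and mmu-miR-206-5p were at 0. The marker miRNAs named here are all 5p arms, and the opposite arms of their hairpins were not summed. A marker at 0 or a low sum therefore does not show that a cell type was absent or scarce. Control library 1 was lowest for the mesenchymal, red cell and epithelial sums and for both clusters. The endothelial marker was lowest in Rx-Dicer library 2 and the neural sum in Rx-Dicer library 1. The part that these cell types had in the levels of the cluster miRNAs was not tested.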

How the data were processed

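Total RNA was taken from E11.5 telencephalic primordium. The authors prepared libraries with a NEBNext small RNA kit, sequenced them on an Illumina HiSeq instrument as single-end reads, and counted these with miRDeep2 against mm10 and miRBase. The deposited values are raw counts per pair of mature miRNA and precursor, in 1211 rows. The version of miRDeep2 and its treatment of reads with several matches are not given in the sources used here.

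For each mature miRNA the precursor row with the highest total was kept. A miRNA entered the test if 2 or more libraries had 10 or more counts of it, which left 274. They were compared between genotypes with edgeR 4.0.16 (limma 3.58.1, R 4.3.3) by its quasi-likelihood test after TMM scaling, without covariates, and Benjamini-Hochberg adjustment over all 274 (threshold 0.05). The study's own test, DESeq2's Wald test (DESeq2 1.42.0), was an alternative, beside other scalings, no count minimum, summed precursor rows, a replicate block and leaving out each library. The fit was tested on simulated data. Poisson, binomial and conditional ratio intervals (Python 3.11.15, scipy 1.17.1) are exact. Sequences came from RefSeq and transcripts from GENCODE, on GRCm38.

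The miRNAs named are the 10, other rows of both clusters, rows with a shared seed and listed cell type markers. Added for scale are mmu-miR-9-5p and mmu-let-7b-5p. So is, for each cluster, the miRNA of another locus nearest in level (log2 of CPM with 0.5 added) to the sum of those of the 10 in it. The 10 miRNAs, the lists and the rules were chosen with earlier results of these data known.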

Additional observations from a re-analysis of the deposited data

How the results depend on the processing

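At most 5 counts in any library were found for 8 of the 10 cluster miRNAs, and at such counts a difference between genotypes was not detectable. For mmu-miR-292a-5p and mmu-miR-302a-5p, all 22 fold changes under the alternatives were positive, from 0.32 to 1.14 on the log2 scale, and none was called (adjusted p 0.219 to 0.986 by edgeR or DESeq2). Leaving out a library gave 0.32 (without control library 1) to 1.12 (without control library 2) for mmu-miR-292a-5p and 0.37 (without Rx-Dicer library 1) to 1.13 (without control library 2) for mmu-miR-302a-5p. The count of miRNAs called lower, 7 in the reported test, was 4 with DESeq2's size factors, 0 with total counts only, 14 with no count minimum, 8 with summed precursor rows and 11 by DESeq2's Wald test, and 0 to 5 when a library was left out (1 and 5 without Rx-Dicer libraries 1 and 2, 0 without either control). No setting called a miRNA higher. Same-numbered libraries did not deviate together (correlation 0.083 over 274 miRNAs), so the numbers are taken as names only. With the replicate block, 0 were called lower, also with no count minimum, and the log2 fold changes were 0.69 for mmu-miR-292a-5p (edgeR adjusted p 0.55) and 0.74 for mmu-miR-302a-5p (edgeR adjusted p 0.653). The summed miR-290 cluster was 17.3 scaled CPM higher in the mutants, 29.4 as CPM of the total, 35.2 as CPM without mmu-miR-9-5p, and 9.71 (without control library 1) to 24.9 (without control library 2) when a library was left out. The summed miR-302 cluster was 17.9 higher, 28.5 as CPM of the total, 34.8 without mmu-miR-9-5p, and 6.45 (without Rx-Dicer library 1) to 29.3 (without Rx-Dicer library 2) when a library was left out. Of the 10 miRNAs, 8 were detected in some library, 3 at 3 counts and 2 at 10 counts. With counts scaled down to the total of the shallowest library, 6 had an expected count of at least 1. The shares of all mature miRNAs under the same settings were 59.9%, 40.9%, 28.1% and 47.9%. In all 4 libraries, 2 of the 10 were detected under each setting, and the whole-table share ran from 36.0% down to 22.7% at 10 counts. The cause of these shifts was not tested.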
